A study of Mus musculus with 11 samples.

Results

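Genes of membrane excitability and calcium signalling, 8 in number, were followed here through the methylated-DNA profile of the mouse suprachiasmatic nucleus (SCN), the hypothalamic pacemaker of the daily clock. They are Nalcn, Kcnh5, Kcnj6, Trpc7 and Ano2, which encode ion channels, and Itpr2, Adcy8 and Rcan1, which act in calcium and cyclic AMP signalling. The 8 genes were chosen by name from windows of the genome that the authors had listed for a difference in read density between cycle lengths. Those same read densities are therefore given as a description, with no test. They are the nearest gene of 9 listed windows, out of 1239 listed windows and 787 gene names in all. The profile comes from MeDIP-seq, that is, sequencing of DNA fragments pulled down by an antibody against methylated cytosine.

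The mice were wild-type C57BL/6Cr1 animals, with an age of postnatal day 90 in the labels. They lived for 6 weeks on light-dark cycles of 22 h or 26 h, or on the 24 h cycle that serves here as the comparison, and then for 3 days in darkness. The ventral and the dorsal part of the SCN were cut from 1 slice at circadian time 4. Labels give 2 samples each for ventral 22 h, ventral 26 h, dorsal 22 h, dorsal 26 h and ventral 24 h, and 1 sample for dorsal 24 h, although the series text speaks of duplicates. The authors' lists compare 22 h with 24 h and 26 h with 24 h, in each part of the SCN, with 1 column of values per cycle length. The files show no replicates, so the spread between mice cannot be seen, and every interval below is an exact 95% interval for counting error alone.

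As background, SCN neurons fire faster by day than by night. A sodium leak current pulls the membrane towards firing and potassium channels pull it back. Calcium enters through channels or leaves internal stores, and it acts with cyclic AMP on the transcription of clock genes; light and neuropeptides reset the clock through the same messengers. MeDIP recovers a fragment through its methylated cytosines, which in mouse brain lie mostly in CpG dinucleotides, so the reads of a window depend on how many CpGs it holds as well as on how many are methylated.

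The letters of the windows are given first, because the windows differ in CpG content and in repetition and the values below are read against both. Each line holds 300 bases of the + strand of mm9, 5′ to 3′, with CpG dinucleotides in capitals. The stretches come from the more repetitive part of each window, so they do not stand for the whole window. No stretch is given for Rcan1 or for the other Ano2 window, which are among the less repetitive windows. The stretches lie at chr14:123944011-123944310 (Nalcn), chr12:75905139-75905438 (Kcnh5), chr16:95310001-95310300 (Kcnj6), chr13:57416201-57416500 (Trpc7), chr6:125827001-125827300 (Ano2), chr6:146199501-146199800 (Itpr2) and chr15:64534542-64534841 (Adcy8).
Nalcn: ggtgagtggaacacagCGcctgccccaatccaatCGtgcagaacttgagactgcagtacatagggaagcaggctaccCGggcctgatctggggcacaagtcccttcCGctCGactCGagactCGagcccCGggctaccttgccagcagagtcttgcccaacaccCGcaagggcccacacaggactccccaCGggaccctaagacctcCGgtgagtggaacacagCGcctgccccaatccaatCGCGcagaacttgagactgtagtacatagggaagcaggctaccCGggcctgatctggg
Kcnh5: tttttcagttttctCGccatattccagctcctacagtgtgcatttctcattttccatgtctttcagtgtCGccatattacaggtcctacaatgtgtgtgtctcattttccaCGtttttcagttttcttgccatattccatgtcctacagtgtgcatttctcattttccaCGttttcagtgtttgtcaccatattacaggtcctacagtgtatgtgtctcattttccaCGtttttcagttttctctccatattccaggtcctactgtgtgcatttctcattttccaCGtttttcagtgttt
Kcnj6: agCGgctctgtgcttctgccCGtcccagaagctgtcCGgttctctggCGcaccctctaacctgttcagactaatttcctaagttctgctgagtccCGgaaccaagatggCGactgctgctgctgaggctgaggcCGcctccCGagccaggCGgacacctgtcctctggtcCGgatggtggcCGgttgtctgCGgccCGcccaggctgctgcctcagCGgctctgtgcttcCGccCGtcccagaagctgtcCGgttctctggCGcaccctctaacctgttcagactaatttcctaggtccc
Trpc7: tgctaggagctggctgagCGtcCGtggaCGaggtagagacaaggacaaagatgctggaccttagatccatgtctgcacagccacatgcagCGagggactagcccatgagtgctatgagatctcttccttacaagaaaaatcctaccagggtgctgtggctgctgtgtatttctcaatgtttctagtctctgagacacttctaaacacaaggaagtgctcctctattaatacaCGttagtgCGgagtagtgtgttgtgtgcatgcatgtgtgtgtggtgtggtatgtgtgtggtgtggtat
Ano2: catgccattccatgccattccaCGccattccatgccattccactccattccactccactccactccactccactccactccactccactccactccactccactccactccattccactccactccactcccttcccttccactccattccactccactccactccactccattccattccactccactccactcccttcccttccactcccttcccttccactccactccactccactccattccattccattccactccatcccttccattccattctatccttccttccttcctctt
Itpr2: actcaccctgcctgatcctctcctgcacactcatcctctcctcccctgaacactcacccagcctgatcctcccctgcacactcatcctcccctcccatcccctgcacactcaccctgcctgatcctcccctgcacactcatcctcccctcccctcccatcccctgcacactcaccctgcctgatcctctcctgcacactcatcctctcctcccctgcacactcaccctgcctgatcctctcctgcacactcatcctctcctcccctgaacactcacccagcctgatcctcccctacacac
Adcy8: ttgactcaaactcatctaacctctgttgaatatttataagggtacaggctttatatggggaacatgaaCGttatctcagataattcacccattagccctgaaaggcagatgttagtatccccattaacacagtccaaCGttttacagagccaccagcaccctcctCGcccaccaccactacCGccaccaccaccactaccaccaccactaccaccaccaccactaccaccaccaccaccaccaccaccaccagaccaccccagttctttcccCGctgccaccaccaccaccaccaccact
The Nalcn stretch holds 15 CpGs and the Kcnj6 stretch 18. The Kcnh5 and Trpc7 stretches hold 6 each, the Adcy8 stretch 5, the Ano2 stretch 1 and the Itpr2 stretch none. The Ano2 letters repeat short words such as ccact and ccatt, the Adcy8 stretch ends in a run of cac triplets, and the Itpr2 stretch repeats longer units built from ctcc and cac.

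The 4 lists are of unequal size. The ventral 22 h list has 812 windows, of which 615 were higher and 197 lower than at 24 h, and the ventral 26 h list has 217, of which 159 were higher and 58 lower. The dorsal 22 h list has 131 windows, 122 of them higher, and the dorsal 26 h list has 79, 62 of them higher. Depth, read from the step that 1 read makes in RPKM (reads per kilobase of window, divided by the reads of the column), was 8170000 reads for ventral 22 h, 9430000 for ventral 26 h and 5230000 for ventral 24 h. It was 5720000 for dorsal 22 h, 5770000 for dorsal 26 h and 4580000 for dorsal 24 h. None of 25 marker genes of neurons, astrocytes, oligodendrocytes, microglia and endothelial cells was the nearest gene of a listed window. Only 2.73% of 22238 coding gene names in the annotation were, so this is no check of the tissue label. A methylation profile without expression values gives none either.

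Of the 9 windows, 5 were listed in the ventral and 4 in the dorsal SCN. Of these, 3 windows of 2 genes, Kcnj6 and Ano2, were higher on the other cycle than at 24 h, and 6 windows of 6 genes were lower. Over all 1239 listed windows 77.3% were higher and 22.7% lower. Together the 2 columns of a list held between 15 and 621 reads per window, and 8 of the 9 windows had under 100. No window stood in more than 1 list.

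Nalcn encodes the sodium leak channel, a background cation channel that depolarises neurons and that in mouse SCN neurons carries a leak current which is larger by day. Its window, chr14:123944001-123944500, was in the ventral 26 h list. It had 0 RPKM at 26 h and 5.74 RPKM at 24 h, which is 0 reads against 15. Against a floor of 3 reads in the 26 h column this is at least 9.02-fold lower at 26 h, and the exact limit, which also covers the counting error at 24 h, is 6.47-fold. By level the window was 203rd of the 217 in its list. The authors' deposited table gives a log2 fold change of 7.02, as 24 h over 26 h, with an unadjusted p of 3.07e-05.

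Kcnh5 encodes a voltage-gated potassium channel of the ether-à-go-go family. Its window, chr12:75905001-75905500, was also in the ventral 26 h list and was by far the best covered of the 9. It had 67.2 RPKM at 26 h and 116.24 RPKM at 24 h, or 1.73-fold lower at 26 h (1.47 to 2.03). The reads behind these levels were almost level, 317 at 26 h and 304 at 24 h, in columns of 9430000 and 5230000 reads. RPKM divides by these depths, so level reads give a lower RPKM at 26 h. Whether the difference comes from methylation or from depth was not tested. The authors' deposited table gives a log2 fold change of 0.67 (24 h over 26 h) and p = 4.89e-09. Nalcn was the 1 member window at least 2-fold lower in this list, where 9.68% of all windows were that far lower, and no member was at least 2-fold higher, where 51.6% of all windows were.

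Kcnj6 encodes GIRK2, a potassium channel that opens when G-protein-coupled receptors release their beta-gamma subunits and that quiets the neuron. The window named after it, chr16:95310001-95310500, was in the ventral 22 h list with 11.75 RPKM at 22 h and 1.53 RPKM at 24 h. It held 48 reads at 22 h and 4 at 24 h, a level 7.68-fold higher at 22 h (2.81 to 29.3). The interval is wide because of the 4 reads. In fold it was 127th of the 615 windows higher in that list. The authors' deposited table has a log2 fold change of -2.77 (24 h over 22 h) with p = 2.48e-06.

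Trpc7 encodes a cation channel opened by diacylglycerol; in mouse retina it works with Trpc6 downstream of melanopsin, the photopigment of the cells that send light signals to the SCN. The window named after it, chr13:57416001-57416500, was in the dorsal 22 h list, at 0.35 RPKM at 22 h and 8.73 RPKM at 24 h. A single read at 22 h stood against 20 at 24 h, a ratio of 0.04 (0.001 to 0.25). Its fold was the largest among the 9 windows lower than at 24 h in that list. The authors' deposited table gives 3.97 as log2 of 24 h over 22 h, and p = 4.04e-05. It was the 1 member at least 2-fold lower in this list, where 3.05% of all windows were, and no member was at least 2-fold higher, where 84.7% of all windows were.

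Ano2 encodes a chloride channel opened by calcium, known from olfactory neurons and photoreceptor terminals. Adjoining windows of the gene, chr6:125826501-125827000 and chr6:125827001-125827500, were both in the dorsal 26 h list. The first had 19.06 RPKM at 26 h and 3.06 RPKM at 24 h, or 55 reads against 7, and was 6.24-fold higher at 26 h (2.83 to 16.2). The second had 14.21 RPKM at 26 h and 3.06 RPKM at 24 h, or 41 reads against 7, and was 4.65-fold higher (2.07 to 12.3). These are neighbours within the reach of the sonicated fragments and are not independent. Joined, they held 96 reads at 26 h and 14 at 24 h and were 5.45-fold higher at 26 h (3.09 to 10.3). In fold they were 33rd and 45th of the 62 windows higher in the list. The authors' deposited table has log2 fold changes of -2.78 and -2.42 (24 h over 26 h), with p = 1.03e-09 and 1.2e-06. The share of all windows of this list at least 2-fold higher at 26 h was 68.4%.

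Itpr2 encodes the type 2 inositol trisphosphate receptor, a channel that releases calcium from the endoplasmic reticulum and is the main type in astrocytes. Its window, chr6:146199501-146200000, had 4.41 RPKM at 22 h and 13.38 RPKM at 24 h in the ventral 22 h list. That is 18 reads against 35, or 3.04-fold lower at 22 h (1.67 to 5.70). In fold it was 165th of the 197 windows lower in the list. The authors' deposited table gives 1.85 as log2 of 24 h over 22 h, with p = 2.92e-06.

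Adcy8 encodes an adenylyl cyclase that calcium and calmodulin stimulate, so that it turns a calcium signal into cyclic AMP. Its window, chr15:64534501-64535000, was in the same ventral 22 h list and also lower, at 1.71 RPKM at 22 h and 8.41 RPKM at 24 h. With 7 reads against 22 it was 4.91-fold lower at 22 h (2.03 to 13.6), and 41st of 197 in fold. The authors' deposited table gives 2.53 as log2 of 24 h over 22 h, with p = 2.89e-06. In this list 2 member windows were at least 2-fold lower, as were 24.3% of all its windows, and 1 member, Kcnj6, was at least 2-fold higher, as were 75.0% of all.

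Rcan1 encodes an inhibitor and regulator of calcineurin, the phosphatase that calcium and calmodulin switch on. Its window, chr16:92434501-92435000, was in the dorsal 26 h list at 0.35 RPKM at 26 h and 7.86 RPKM at 24 h. One read at 26 h stood against 18 at 24 h, which is 22.7-fold lower at 26 h (3.58 to 944) and the largest fold among the 17 windows lower in the list. The authors' deposited table gives 3.97 as log2 of 24 h over 26 h, with p = 7.68e-05. Rcan1 was the 1 member at least 2-fold lower there, where 21.5% of all windows were, beside the 2 Ano2 windows that were higher. The Ano2 and Rcan1 windows thus lay on opposite sides of 24 h in this list, that of Rcan1 on 1 read at 26 h. A link of either direction to calcium signalling was not tested.

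**Figure D1:**
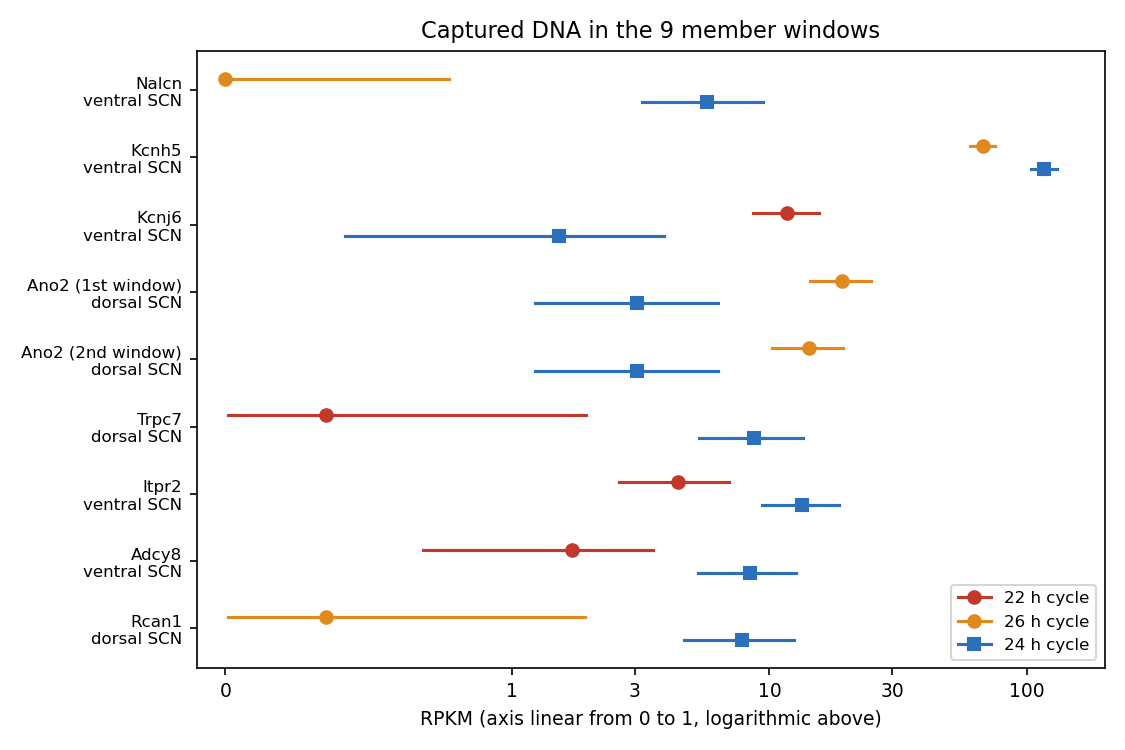
MeDIP-seq level (RPKM, on an axis that is linear up to 1 and logarithmic above) of the 9 windows at the 22 h or 26 h cycle and at 24 h, 1 column per cycle length with no replicates; bars are exact 95% intervals of the recovered reads. The windows were listed for a difference between these columns, so the gap between their bars is no result about the 8 genes. Kcnh5, at 67.2 RPKM at 26 h and 116.24 RPKM at 24 h, lies far above the others.

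**Figure D2:**
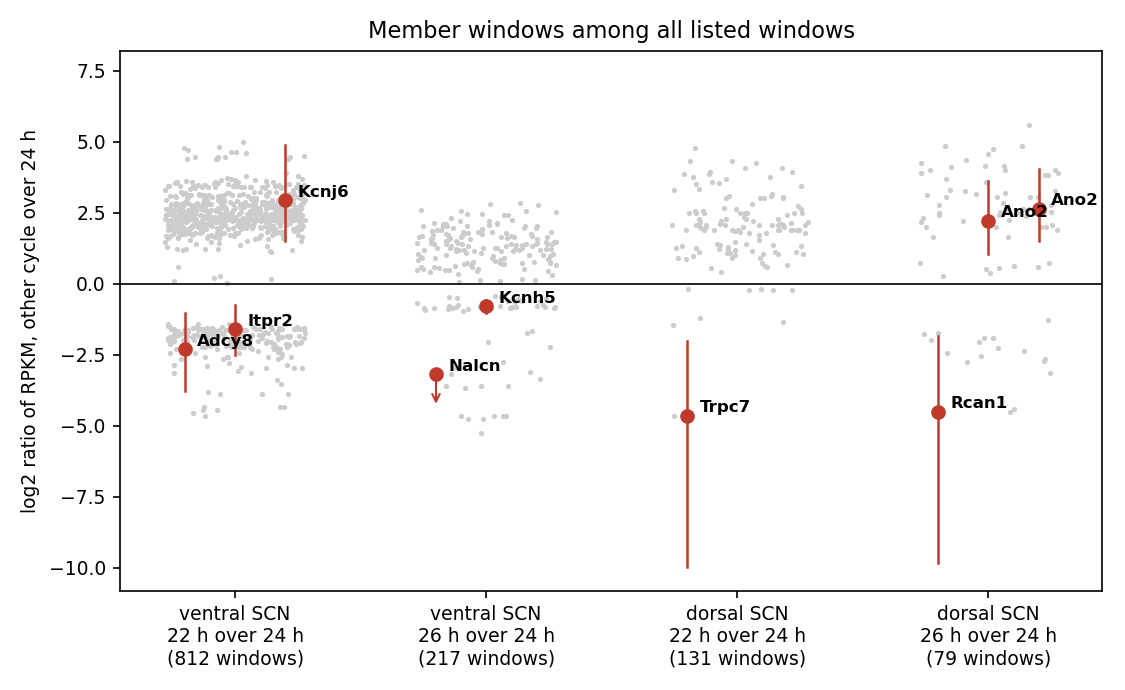
Ratio of RPKM (log2, other cycle over 24 h) of each listed window, in grey, and of the 9 windows, in red with exact 95% intervals; the arrow marks Nalcn, which is a bound against a floor of 3 reads. Kcnj6 and Ano2 lie above 0 among most of their lists, and Trpc7 and Rcan1 lie at the lower edge of theirs with the widest intervals.

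None of the 9 windows touched an exon. Introns held 6 of them, in 5 genes, and 3 were outside any transcript of the gene they are named after. By the authors' distances they were 31.6 to 419.3 kb from the start site, with a median of 186.8 kb; the medians over the 4 lists were 77.8 kb (ventral 22 h), 24.8 kb (ventral 26 h), 44.3 kb (dorsal 22 h) and 85.7 kb (dorsal 26 h). The genes are long: the shortest, Rcan1, spans 74.2 kb, and 14.8% of 22380 coding genes are at least that long, against a median of 15.4 kb.

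In Nalcn the window was in intron 7 of 43, an intron of 56.2 kb, at 82.1 kb from the start. Ano2 carried both of its windows in intron 13 of 25, 186.3 and 186.8 kb from the start that the authors use, and 61.2 and 61.7 kb from the nearest annotated start of an Ano2 transcript. The Itpr2 window was in intron 36 of 55, 251.0 kb from the authors' start and 43.1 kb from another annotated start of the gene. Adcy8 had its window close to the other end, in intron 16 of 17, 219.1 kb from the start and 4.15 kb from the 3′ end. The Rcan1 window was 31.6 kb from the start, in intron 1 of the longer of 2 annotated transcripts, an intron of 68.4 kb; the shorter transcript does not reach it.

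The other 3 windows carry a gene's name through distance alone. The Kcnh5 window was 93.0 kb beyond the 3′ end of the gene and 373.1 kb from its start. The Kcnj6 window was 90.9 kb upstream of the gene, with an annotated non-coding RNA, Gm17496, starting closer, at 72.3 kb. Trpc7 was 419.3 kb away, and the nearest annotated start to its window belongs to Spock1, at 381.3 kb. Within the 8 genes there are 4082 windows of the grid and 7 of them were listed. In all, 1181 distinct windows were listed, and the genome grid has 5116421. The genes were picked from listed windows, so 6 of the 7 were inside by that choice. Among those 7, chr6:125975001-125975500 inside Ano2 is named after Ntf3 by the authors. In the ventral 22 h list it had 19.34 RPKM at 22 h and 2.29 RPKM at 24 h. It was 8.43-fold higher at 22 h (3.71 to 23.7). It shared 86 words (runs of letters) of 31 bases with the Nalcn window. All 243 windows of that list that shared such words with Nalcn were higher at 22 h.

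**Figure D3:**
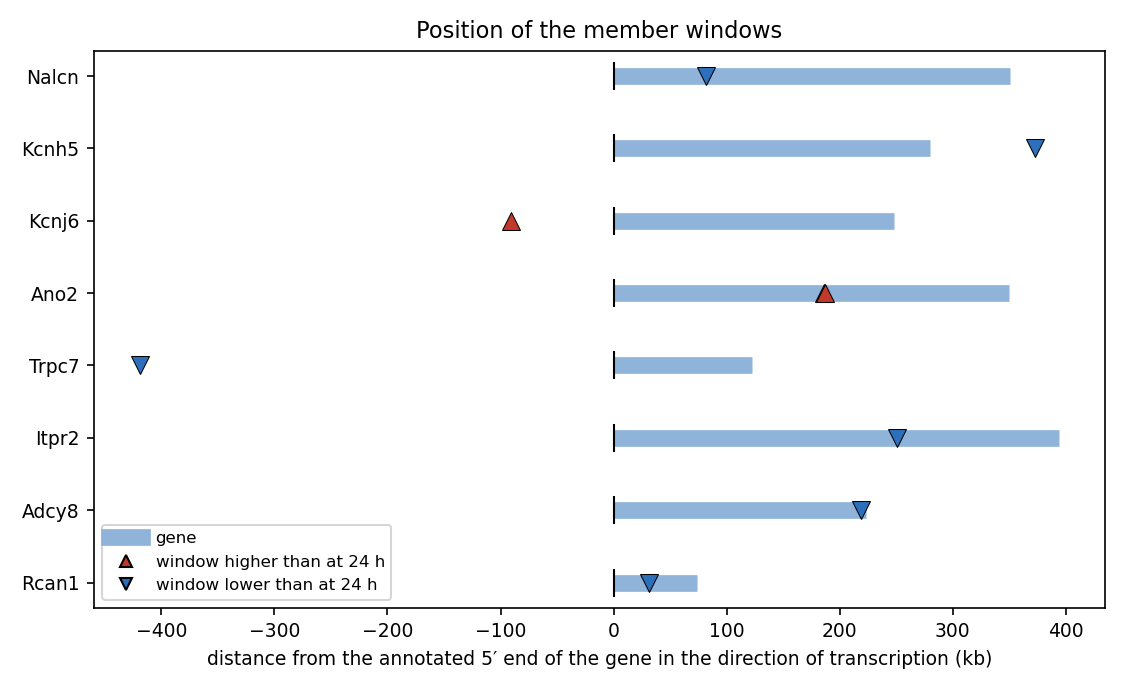
Each of the 8 genes drawn from start to end (kb from the annotated start, which lies at 0), with its listed windows as marks, red where higher and blue where lower than at 24 h. Of the 9 marks, 6 lie inside a gene body, with those of Ano2 drawn over each other, and those of Kcnh5, Kcnj6 and Trpc7 lie outside, at 373.1, 90.9 and 419.3 kb from the start.

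In sequence the 9 windows were far from uniform. Over the 500 bp they held 1 to 25 CpGs, with a median of 6; the median was 15 over all listed windows and 3 over the 5116421 windows of the genome grid. Nalcn and Kcnj6 held 25 CpGs each, a count that 0.708% of grid windows reach, followed by Trpc7 with 11, Kcnh5 with 10, Adcy8 with 6 and Rcan1 with 5. The Ano2 windows had 2 and 1 and the Itpr2 window 1, counts that 76.6% or more of grid windows reach. Nalcn stood above its own list in this: the windows lower than at 24 h in the ventral 26 h list had a median of 7.5 CpGs. Kcnj6, with 25, was close to the median of 28 for the windows higher in the ventral 22 h list.

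Repetition within the window was measured as the share of its bases that lie in 12-base words occurring more than once in it. It was 99% for Itpr2, 93.8% for the second Ano2 window, 86% for Kcnh5, 84% for Nalcn and 44.8% for Kcnj6, and only 0.728% of grid windows reach 50%. It was 21.6% for Adcy8, 12% for the first Ano2 window, 6.6% for Trpc7 and 5.2% for Rcan1. Among the 9 windows, 4 (44.4%) reached 50%, as did 517 of the 1239 listed windows (41.7%), 432 of these in the ventral 22 h list. Read by list, the picture differed. Both ventral 26 h windows, Nalcn and Kcnh5, reached 50%, where 17.1% of that list and 51.7% of its windows lower than at 24 h did. In the ventral 22 h list Itpr2 did and Adcy8 and Kcnj6 did not, where 53.2% of the list did. There it was 46.2% of the lower and 55.4% of the higher windows. Trpc7 and Rcan1 did not, where 88.9% of the windows lower in the dorsal 22 h list and 70.6% of those lower in the dorsal 26 h list did. The second of the Ano2 windows did and the first did not, where 14.5% of the windows higher in that list did. The most frequent spacing of the recurring words was 200 bp in Nalcn (90 of 183 recurrences) and 214 bp in Kcnj6 (68 of 68). It was 116 bp in Kcnh5 (52 of 186), 168 bp in Itpr2 (60 of 356) and 4 bp in the second Ano2 window (100 of 297). Except in Kcnj6, other spacings also occurred.

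Whether reads can be placed in a window with certainty depends on how often its words occur in the genome. In Rcan1, Trpc7, the first Ano2 window and Adcy8, 91.1% or more of the 31-base words occurred once, and in Kcnh5 66.2% did. The second Ano2 window had 49.8%, Kcnj6 29.4%, Itpr2 25.5% and Nalcn 11.9%. The median word occurred 281 times in the genome in Nalcn and 465 times in Kcnj6. Counted as mostly unique, with at least 50% of words occurring once, were 5 of the 9 windows and 345 of the 1239 listed windows (27.8%). How reads that match several places were handled is not given in the sources used here, and the part of repeated sequence in the values was not tested. Within 8 kb of the Kcnj6 and Nalcn windows lay a reading frame of 1300 and 1195 codons that holds a reverse transcriptase motif, as in LINE-1 retrotransposons; no frame of 600 codons or more with that motif lay within 8 kb of the other 7.

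**Figure D4:**
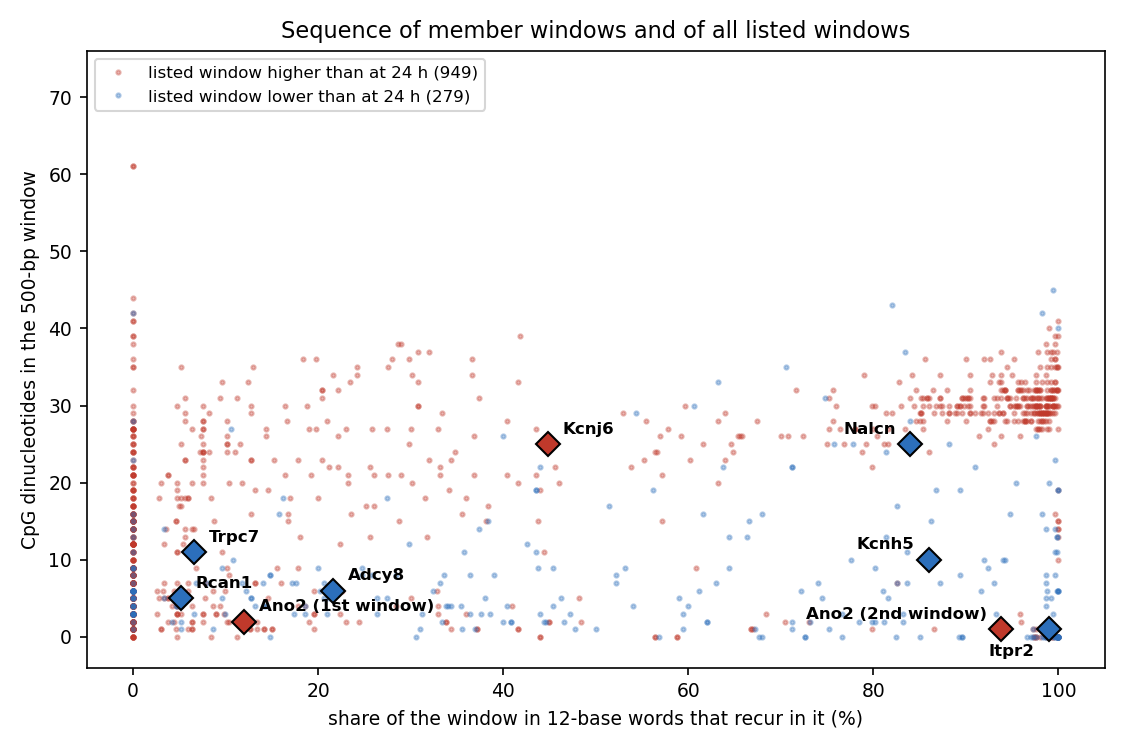
CpG dinucleotides per 500-bp window against the share of the window in 12-base words that recur in it (%), for listed windows with a complete sequence (dots) and the 9 windows (diamonds), red where higher and blue where lower than at 24 h. Nalcn and Kcnj6, with 25 CpGs each, stand on the upper side, and Itpr2 and the second Ano2 window on the lower right with 1 CpG each.

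Of the 9 windows, 6 shared at least 1 word of 31 bases with other listed windows, and Trpc7, Itpr2 and Rcan1 shared none. The Nalcn letters recurred most. They were shared by 243 windows of the ventral 22 h list, 29.9% of it, nearest to 182 genes on 20 chromosomes. The window inside Ano2 that is named after Ntf3 was among these. All 243 were higher at 22 h, with medians of 16.16 RPKM at 22 h and 2.68 RPKM at 24 h and a median ratio of 5.44 (range 3.13 to 31.4), while 75.7% of that whole list was higher. The window that shared most words with it, 254, is nearest Mettl22. The longest run in common with that window, 190 bases at chr14:123944066-123944255, recurs at chr16:8461053-8461242. Runs in common with the other windows were not measured. In the ventral 26 h list, where the Nalcn window itself stands at 0 RPKM at 26 h, no other window shared its words. A further 3 windows with its words were in the dorsal 26 h list, all higher, with medians of 6.59 RPKM at 26 h and 0.44 RPKM at 24 h.

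Kcnj6 shared words with 53 windows of its own ventral 22 h list, nearest to 43 genes, and all 53 were higher at 22 h. Their medians were 13.46 RPKM at 22 h and 2.29 RPKM at 24 h, with a median ratio of 5.84 (3.50 to 21.8), and the Kcnj6 window's 7.68 lies inside that range. A run of 105 bases, chr16:95310038-95310142, recurs at chr6:141311069-141311173 in a window nearest Gm10400.

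The Kcnh5 letters resemble the major satellite, the tandem repeat of mouse pericentromeric DNA, as far as that sequence is known as background; no repeat annotation was used here. The run it has in common with a window nearest Mir101c (chr9:3014688-3014732) lies at chr12:75905435-75905479.
Kcnh5 common run: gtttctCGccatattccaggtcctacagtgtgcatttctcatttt
Its words were shared by 7 windows of the ventral 26 h list, all lower at 26 h, with medians of 119.78 RPKM at 26 h and 214.88 RPKM at 24 h. Their folds were 1.73 to 1.83 lower at 26 h, with Kcnh5, also 1.73 when rounded, just under the lowest of them, and their reads at 26 h over 24 h were 0.988 to 1.04, as level as in the Kcnh5 window. In the dorsal 22 h list 5 windows near Mir101c shared its words, with medians of 420.77 RPKM at 22 h and 484.02 RPKM at 24 h, 1.14-fold to 1.17-fold lower at 22 h.

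Words of the Ano2 windows were shared by 16 windows of the dorsal 26 h list (20.3%) and 11 of the dorsal 22 h list. All 16 were higher at 26 h, with medians of 18.54 RPKM at 26 h and 1.31 RPKM at 24 h and a median ratio of 14.0 (3.97 to 48.4). All 11 were higher at 22 h, with medians of 10.13 RPKM at 22 h and 0.87 RPKM at 24 h. Both dorsal lists use the same 24 h column. The 10 of these 11 windows that share words with the first Ano2 window are also among the 16. The sets are thus largely the same windows and not separate evidence. In the ventral lists the words went with both directions: 2 windows were lower at 22 h, with medians of 5.265 RPKM at 22 h and 17.395 RPKM at 24 h, and 2 were higher at 26 h. Adcy8 shared a run of 38 bases, the cac triplets at chr15:64534751-64534788, with 1 window nearest Tdrp, which was lower as well, at 2.2 RPKM at 22 h and 9.18 RPKM at 24 h.

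**Figure D5:**
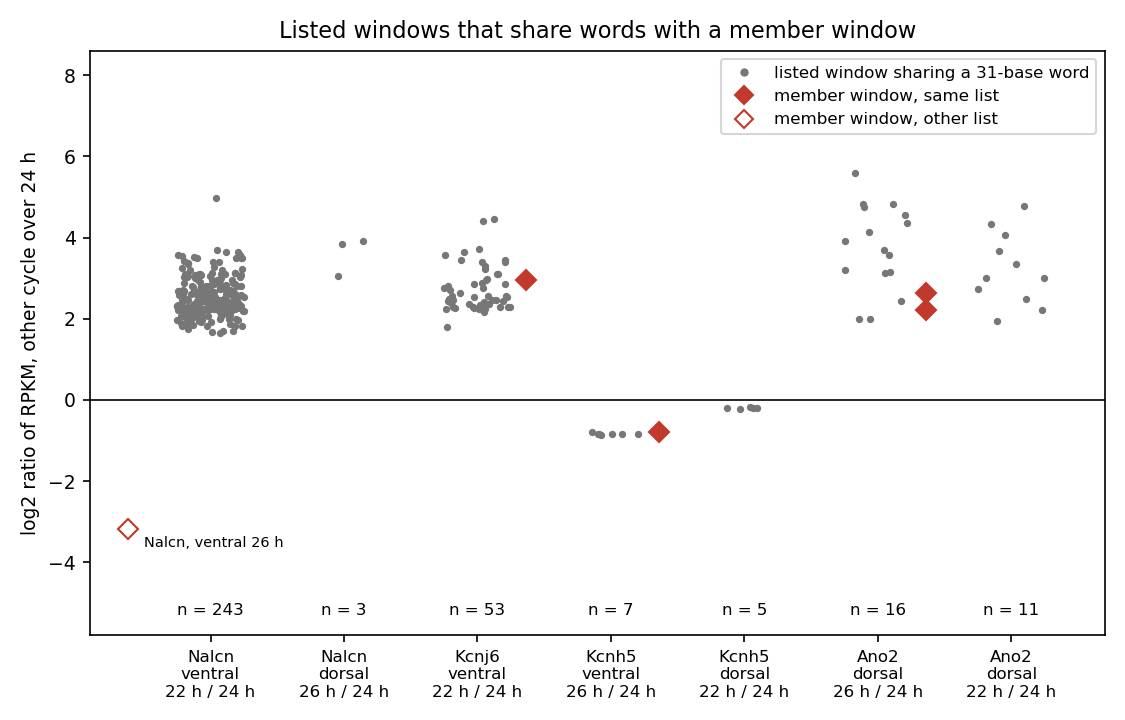
Ratio of RPKM (log2, other cycle over 24 h) of listed windows that share a 31-base word with a member window (grey dots, number below), beside that window's own ratio (filled diamond in the same list, open diamond in another list). Windows that share words with Nalcn lie above 0 in the ventral 22 h list while Nalcn's own bound at ventral 26 h lies below 0.

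Relatives of the 8 genes were counted in the same way. The 10 lists of channel and calcium signalling genes held 209 annotated genes, and 13 of them, the 8 included, named 14 windows, 5 higher and 9 lower than at 24 h. That is 6.22% of the list genes, where 2.73% of 22238 coding gene names in the annotation named a listed window, and the 8 members are among the 13 because they were picked from listed windows. Over all 1239 listed windows 958 were higher and 281 lower. None of the 18 voltage-gated calcium channel genes was among them. Of the 35 voltage-gated potassium channel genes 1 was, Kcnh5, as was Nalcn of the 18 sodium leak, voltage-gated sodium and pacemaker channel genes. The inward rectifier and tandem-pore potassium channels contributed 3 of 28 and the TRP channels 3 of 27. The other 5 genes were all in the ventral 22 h list.

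A further 2 potassium channel windows were lower at 22 h. Kcnk5, a tandem-pore background potassium channel, had 2.45 RPKM at 22 h and 8.79 RPKM at 24 h, 3.59-fold lower (1.64 to 8.46), at 24.7 kb from its start. Kcnj5, which forms G-protein-gated channels like Kcnj6, had 3.92 RPKM at 22 h and 13 RPKM at 24 h, 3.32-fold lower (1.78 to 6.44). The windows named after Kcnj6 and Kcnj5 thus lay on opposite sides of 24 h in the same list. They are unlike in sequence and place. Of the 31-base words 29.4% occurred once in the Kcnj6 window, 90.9 kb upstream of its gene. In the Kcnj5 window, 34.6 kb from the start, 96.4% did, and it shared no word with a member window.

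Another 2 windows, of TRP channels, were higher at 22 h. Trpa1, a sensor of irritants in sensory neurons, had 14.44 RPKM at 22 h and 2.68 RPKM at 24 h, 5.40-fold higher (2.46 to 14.0). Trpm1, the channel of retinal ON bipolar cells, had 17.87 RPKM at 22 h and 4.59 RPKM at 24 h, 3.89-fold higher (2.10 to 7.88). They held 38 and 35 CpGs, with 98.6% and 0% of their bases in recurring words. Of their 31-base words 0% and 4.68% occurred once. Atp2a2, the pump that returns calcium to the endoplasmic reticulum, had 11.5 RPKM at 22 h and 35.94 RPKM at 24 h, 3.12-fold lower (2.18 to 4.53). Like the Itpr2 window it was lower at 22 h and highly repetitive, with 92% of its bases in recurring words. High repetition thus stood on both sides of 24 h here, since the Trpa1 window was higher at 22 h.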

How the data were processed

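MeDIP-seq was made from 11 samples in 6 groups of ventral and dorsal SCN. Per the submitters' processing notes, BWA and the mm9 build were used, and no version is given. The authors deposited 4 lists of 500-bp windows with 1 column per cycle length. The deposited columns named counts are a score and not reads, in the order of the reads within a column but not between columns. The authors' RPKM values gave whole reads, 100% of them within 0.01 RPKM, and were used for all levels. The log2 fold change (24 h over the other cycle) and the unadjusted p-value, per the file headers from edgeR, are the authors' and compare columns, not groups of mice. How duplicates were combined and why windows were listed is not given in the sources used here.

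Ratios (other cycle over 24 h) carry exact Clopper-Pearson 95% intervals from the recovered reads, levels exact Poisson intervals, and a column at 0 a floor of 3 reads. Intervals cover counting error only, and the labels name no molecular identifiers, so PCR copies may count as separate reads. Windows were placed on NCBIM37, the same build as mm9, with GENCODE M1. Words of 12 and 31 bases were counted in each window and in the genome. Scripts ran under Python 3.11.15 with scipy 1.17.1, pandas 2.3.3, numpy 2.4.6, matplotlib 3.10.9 and numba 0.67.0, and interval and word counts were tested on simulated data.

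The members and gene lists were chosen with earlier results of these data known. Named were the 8 genes, every list gene nearest to a listed window and neighbours within 5 kb. Gm17496, Spock1, Ntf3, Mettl22, Gm10400, Mir101c and Tdrp were named after their values or positions were seen. No unlisted window was analysed, and 3 repeated rows were dropped. Alternatives were another scaling, pseudocount, fold, read minimum, p limit, start site and word length.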

Additional observations from a re-analysis of the deposited data

How the results depend on the processing

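No paired analysis was possible because each list has 1 column per cycle length, without replicate numbers; for the same reason no replicate could be left out. Of 38 alternative values of the windows' ratios, 36 stayed inside their counting interval and kept their direction. At 0 or 1 reads that interval is so wide that large moves stay inside it. With a pseudocount of 1 RPKM the log2 ratio went from -4.64 to -2.85 for Trpc7 and from -4.5 to -2.71 for Rcan1. With the authors' scaling Nalcn went from a bound of -3.17 to -7.02. With no scaling for depth, Kcnh5 turned to a log2 ratio of 0.06, against -0.79 with RPKM, since its reads were 317 at 26 h and 304 at 24 h, and the bound for Nalcn was -2.32, against -3.17. Of the counts at 2-fold, those with p in the authors' deposited table below 1e-06 were 0 for dorsal 22 h lower, 1 for dorsal 26 h higher, 0 for dorsal 26 h lower, 0 for ventral 22 h higher, 0 for ventral 22 h lower and 0 for ventral 26 h lower. A minimum of 20 reads gave 0 for dorsal 26 h lower (Rcan1) and 0 for ventral 26 h lower (Nalcn). For ventral 22 h lower, 4-fold gave 1 and no scaling gave 1, and for ventral 26 h lower 1.5-fold gave 2. The nearest annotated start of the gene was 61.2 and 61.7 kb away for the Ano2 windows and 43.1 kb for Itpr2. With 51-base words 7 windows were mostly unique, against 5. Low read numbers limit Nalcn, Trpc7 and Rcan1 most, at 0, 1 and 1 reads on the other cycle, in columns deeper than those at 24 h.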
